A study of Mus musculus with 16 samples.

Results

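Eph receptors, their ephrin ligands, semaphorins and their plexin receptors form the main contact and short-range guidance systems of animal cells. Their expression was followed here in 2 mouse mammary tumour cell lines treated with TGFb or Wnt3a. The genes were taken by family: 11 Eph receptors, 8 ephrins, 20 semaphorins and 9 plexins, 48 in all. Of these, 47 had a row in the count table of 19665 genes, matched by Entrez identifier, and Sema5b was not analysed here. Low counts kept 5 of the 47 out of the tests, so 42 members were tested among 13172 genes.

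Both lines derive from mammary tumours of MMTV-PyMT mice on the FVB/N background, in which the MMTV promoter drives the polyoma middle T oncogene in mammary epithelium. Line 631 is Pygo2 wild type (+/+, WT) and line 828 is homozygous for the Pygo2 A342E mutation (AE/AE, AE). Pygo2 is a chromatin reader and Wnt co-activator, and the study asked about its binding to histones in dedifferentiation and tumour progression. In each line, cells given 2 ng/ml TGFb for 4 days stood beside untreated 4-day cells, and cells given 100 ng/ml Wnt3a for 3 days stood beside untreated 3-day cells. That made 8 groups of 2 libraries, 16 libraries in all, with 20530538 to 26191846 counts each. Each genotype is represented by 1 line, so genotype and line cannot be told apart. The labels do not say how the duplicates were grown, so the p-values measure only the spread between these samples, which may be technical.

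Eph receptors are receptor tyrosine kinases that bind ephrins on a neighbouring cell. Ephrin-A ligands hang on a lipid anchor and ephrin-B ligands span the membrane, and signals can run into both cells. Semaphorins are secreted (class 3) or membrane-bound ligands. Plexins are their receptors, and most class 3 semaphorins also need a neuropilin as co-receptor. These systems repel or attract growing axons, and in epithelia, vessels and tumours they act on cell contact, the cytoskeleton and migration.

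Levels are counts relative to the library total (CPM), scaled between libraries with TMM, and changes are log2 fold changes with their standard error (SE). Adjusted p-values come from edgeR's quasi-likelihood test over all 13172 genes, and "rose", "fell" and "called" refer to an adjusted p under 0.05. The spread between duplicates was wider in the 3-day experiment. The SD of the log2 ratio of duplicates was 0.658 to 0.749 in both sets of 3-day untreated cells and in Wnt3a-treated WT cells, 0.339 in Wnt3a-treated AE cells, and 0.152 to 0.327 in the 4-day groups. Pygo2 itself lay between 46.3 and 67.7 CPM in all 16 libraries and was not called in any comparison. Its mutation is a single amino acid change, which gene counts cannot show.

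Epithelial markers were abundant in every library, with 10 genes summing to 1782 to 5447 CPM in WT and 1546 to 3302 CPM in AE libraries. Of the markers of other cell types, immune genes summed to at most 8.62 CPM. The 8 fibroblast markers summed to 5.00 to 49.9 CPM in WT and 166 to 359 CPM in AE libraries. With TGFb, 4 of the 6 tested fibroblast markers rose in each line, and between the untreated lines 5 of 6 were higher in AE. Of the defining fibroblast markers, Lum was at or near 0 throughout, Thy1 was at 0 in every WT group, and Pdgfra had a mean of 5.19 CPM in untreated WT and 143 CPM in untreated AE cells. The 9 endothelial markers summed to 3.40 to 14.4 CPM in WT and 9.23 to 161 CPM in AE libraries, and most of the AE sum came from Erg and Flt1, while Tie1 was at 0 in all groups. Neuronal and glial markers summed to 69.3 to 249 CPM in WT and 362 to 553 CPM in AE libraries, mostly Map2 and, in AE cells alone, Sox10. Of the 9 tested epithelial markers, 2 fell with TGFb in WT, and 5 were lower in untreated AE than in untreated WT cells. Other treatment calls among these lists were 2 endothelial and 2 immune markers higher with TGFb in WT, of 4 tested in each list. With Wnt3a in WT 1 fibroblast marker was lower. With Wnt3a in AE 1 fibroblast marker rose, and 1 fibroblast, 1 endothelial and 1 neuronal or glial marker fell. Beside these counts, 27.6% of all genes were called with TGFb in WT, 10.4% with TGFb in AE and 53.8% between the untreated lines. With Wnt3a the shares were 4.28% in WT and 9.33% in AE. The endothelial sum was 28.3 to 50.3 CPM in untreated 3-day and 9.23 to 16.9 CPM in Wnt3a-treated AE libraries, and the fibroblast sum 243.0 to 359 and 166 to 176 CPM. The part of these markers in the results on guidance genes, between the lines or with either treatment, was not tested. In bulk RNA such as this, fewer cells of a type and less RNA per cell cannot be told apart.

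Of the 42 members tested, 32 were called in at least 1 of the 5 comparisons between groups. A treatment changed 24 of them in at least 1 line, and 8 were called between the lines only. Of all genes, 53.8% were called between the untreated lines and 27.6% with TGFb in WT. The share of all genes called in at least 1 comparison was not counted, so the 32 are not set against it. The promoters of 4 members that carry the main results are shown here, as the 250 bases before the transcription start (RefSeq, build GRCm38.p6, written 5′ to 3′ on the gene's strand). Epha4 (chr1:77515089-77515338, minus strand) and Epha7 (chr4:28812881-28813130, plus strand) are Eph receptors that rose with TGFb in WT cells. Sema3d (chr5:12382916-12383165, plus strand) rose with TGFb in both lines, and Sema4f (chr6:82939770-82940019, minus strand) rose with Wnt3a in both lines. Capitals mark CAGAC or its reverse complement GTCTG, the short element that Smad proteins, the transcription factors of the TGFb pathway, bind.
Epha4: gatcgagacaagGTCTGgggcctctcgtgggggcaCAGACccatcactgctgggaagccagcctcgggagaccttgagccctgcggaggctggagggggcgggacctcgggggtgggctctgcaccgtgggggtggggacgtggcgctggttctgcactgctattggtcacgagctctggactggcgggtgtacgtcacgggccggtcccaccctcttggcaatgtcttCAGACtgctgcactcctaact
Epha7: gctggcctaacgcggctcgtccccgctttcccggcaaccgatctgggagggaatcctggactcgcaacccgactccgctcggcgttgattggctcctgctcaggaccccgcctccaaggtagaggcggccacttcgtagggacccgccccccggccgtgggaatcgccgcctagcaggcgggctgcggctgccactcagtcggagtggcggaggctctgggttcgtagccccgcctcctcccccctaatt
Sema3d: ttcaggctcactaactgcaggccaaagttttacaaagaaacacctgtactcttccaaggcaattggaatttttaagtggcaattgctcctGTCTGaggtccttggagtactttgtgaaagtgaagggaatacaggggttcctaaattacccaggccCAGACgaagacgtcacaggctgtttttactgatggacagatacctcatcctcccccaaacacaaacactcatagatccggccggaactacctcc
Sema4f: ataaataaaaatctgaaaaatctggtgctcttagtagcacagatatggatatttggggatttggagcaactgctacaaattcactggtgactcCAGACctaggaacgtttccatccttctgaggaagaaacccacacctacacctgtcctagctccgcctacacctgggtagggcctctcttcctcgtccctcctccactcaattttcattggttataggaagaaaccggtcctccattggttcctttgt

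The CAGAC element occurred 3 times in the Epha4 window, 2 times in that of Sema3d and 1 time in that of Sema4f, and was not found in the Epha7 window. Over all 32851 mouse promoter windows of this length in the table, 42.2% held it. Among the 55 windows of the 41 members with an entry, 28 held it (50.9%). The AP-1 motif TGANTCA was in 3 member windows (5.45%, against 6.75% of all), and the TCF motif CTTTGAT, the element of Wnt target genes, was in none (3.21% of all). Both strands were searched, and each motif was counted on its own, whether or not its match overlapped another. A match in a window is a description of its letters and not a measured binding site.

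Levels between genes were compared per kilobase of exon in the untreated cells. In the WT line Sema3c, a secreted semaphorin, had the highest level at 67.8 ± 27.1 CPM per kb (mean ± SD, n = 4), followed by Efna5 at 46.7 ± 11.6, Plxnb2 at 37.3 ± 15.9, Efna1 at 25.7 ± 8.93 and Epha2 at 23.96 ± 13.6 CPM per kb. In the AE line the order was Sema3c at 73.5 ± 9.28, Plxnb2 at 55.7 ± 15.8, Ephb4 at 30.1 ± 7.49, Epha1 at 27.1 ± 6.70 and Efna5 at 25.5 ± 2.37 CPM per kb. Neighbours in each of these orders overlapped in their library values. Epha3, Epha5, Sema3g, Sema6b and Plxnc1, the members with too few counts to test, reached at most 0.0983, 0.0492, 0.141, 0.445 and 0.248 CPM in any library. Plxnc1 is the plexin that binds Sema7a.

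The first comparison asked which guidance genes respond to TGFb in the WT line. Of 42 members tested, 13 rose and 4 fell (40.5%, where 27.6% of all genes tested were called, 14.7% higher and 12.9% lower). Their median log2 fold change was 0.604, and 0.0592 over all genes tested. With members that had a group at 0 counts set to their lower bound, the median was 0.608. For that value 1 member with at most 3 counts in the other group was left out. Eph receptors, semaphorins and plexins all held strong responses, among them Epha7, Plxna4, Epha4 and Sema3a upward and Plxnb3 downward.

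All 4 called Eph receptors rose, of 9 tested. Epha7 (chr4:28813066-28967503), an ephrin-A receptor, was at 0.803 and 0.660 CPM in untreated WT cells and at 94.2 and 78.1 CPM with TGFb. The log2 fold change was 6.86 ± 0.82 (adjusted p = 6.38e-05). Epha4 (chr1:77367182-77515107), which binds ephrins of both classes, went from 8.26 and 9.10 to 102 and 94.1 CPM, a log2 fold change of 3.50 ± 0.32 (adjusted p = 1.03e-05). Both receptors thus went from low to substantial levels, with no overlap between libraries. Epha1 (chr6:42358487-42373314), an Eph receptor typical of epithelia, went from 78.998 and 101 to 314 and 376 CPM, a log2 fold change of 1.94 ± 0.34 (adjusted p = 0.00118). An exon of Zyx overlaps Epha1 on the opposite strand. Zyx was at 108 and 175 CPM without and 376 and 690.0 CPM with TGFb (log2 fold change 1.91 ± 0.74, adjusted p = 0.0752), and since the strand setting of the counting is not given in the sources used here, reads of the pair cannot be told apart. Ephb2 (chr4:136647536-136836326), an ephrin-B receptor, went from 0.917 and 0.801 to 9.10 and 11.99 CPM, a log2 fold change of 3.61 ± 0.56 (adjusted p = 0.000431). Untreated and treated libraries did not overlap for any of the 4. Here and below, lack of overlap was not counted over all genes and adds no support to a call.

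Of the 8 ephrins, 1 rose and 1 fell. Efnb1 (chrX:99136061-99149022), a transmembrane ligand of EphB receptors, went from 14.2 and 21.1 to 42.7 and 57.3 CPM, a log2 fold change of 1.503 ± 0.40 (adjusted p = 0.0146). Efna5 (chr17:62602957-62881317), a lipid-anchored ligand of EphA receptors, went from 160.0 and 154 to 69.4 and 62.4 CPM, a log2 fold change of -1.26 ± 0.25 (adjusted p = 0.00255). The libraries of both genes were apart between the groups.

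Among the 17 tested semaphorins 6 rose and 2 fell. Sema3a (chr5:13124822-13603485), the classical secreted axon repellent that signals through neuropilin-1 and A-type plexins, went from 17.9 and 15.4 to 143 and 123 CPM, a log2 fold change of 3.00 ± 0.36 (adjusted p = 6.04e-05). Sema3d (chr5:12383161-12588953), another class 3 ligand, was low, with 0.382 and 0.330 CPM without and 4.18 and 3.46 CPM with TGFb (log2 fold change 3.40 ± 0.35, adjusted p = 1.93e-05). Sema3e, the secreted ligand that binds plexin-D1 without a neuropilin, went the other way, from 12.8 and 11.4 to 6.24 and 5.12 CPM (log2 fold change -1.09 ± 0.31, adjusted p = 0.0195). So class 3 held both directions, and in each case the treated libraries lay outside the untreated ones. Sema4c, a membrane-bound ligand of plexin-B2, went from 19.1 and 32.99 to 52.6 and 70.3 CPM (log2 fold change 1.24 ± 0.38, adjusted p = 0.029). Sema7a, a lipid-anchored semaphorin that also binds integrins, went from 0.688 and 0.471 to 2.61 and 2.60 CPM (log2 fold change 2.15 ± 0.53, adjusted p = 0.00983). Sema4g had group means of 0.380 and 1.22 CPM and rose (adjusted p = 0.0279), while Sema4a had 1.21 and 0.302 CPM and fell (adjusted p = 0.00497). Sema6d, a ligand of plexin-A1, had 0 counts in the untreated and 10 counts in the treated libraries, at least 3.71-fold higher when 0 is set to 3 counts over the group (adjusted p = 0.00891).

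Of 8 plexins tested, 2 rose and 1 fell. Plxna4 (chr6:32144543-32588192), a receptor of Sema3a together with neuropilin-1 and of class 6 semaphorins, had 0 counts in both untreated WT libraries. With TGFb it stood at 2.999 and 3.19 CPM, 132 counts in all, at least 48.9-fold higher (adjusted p = 0.0001). A noncoding gene overlaps Plxna4 exons on the opposite strand, so part of these reads could be its own. Plxnb3 (chrX:73756556-73772510), a receptor of Sema5a, went from 2.87 and 3.21 CPM to 0.0983 and 0.0898 CPM, a log2 fold change of -4.94 ± 0.51 (adjusted p = 2.16e-05). Plxnd1 (chr6:115954811-115995339), the Sema3e receptor, went from 5.08 and 6.88 to 22.2 and 37.8 CPM, a log2 fold change of 2.33 ± 0.60 (adjusted p = 0.0128). Plxnd1 was thus higher and its ligand Sema3e lower in the same libraries, and the groups did not overlap for any of the 3 plexins.

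**Figure D1:**
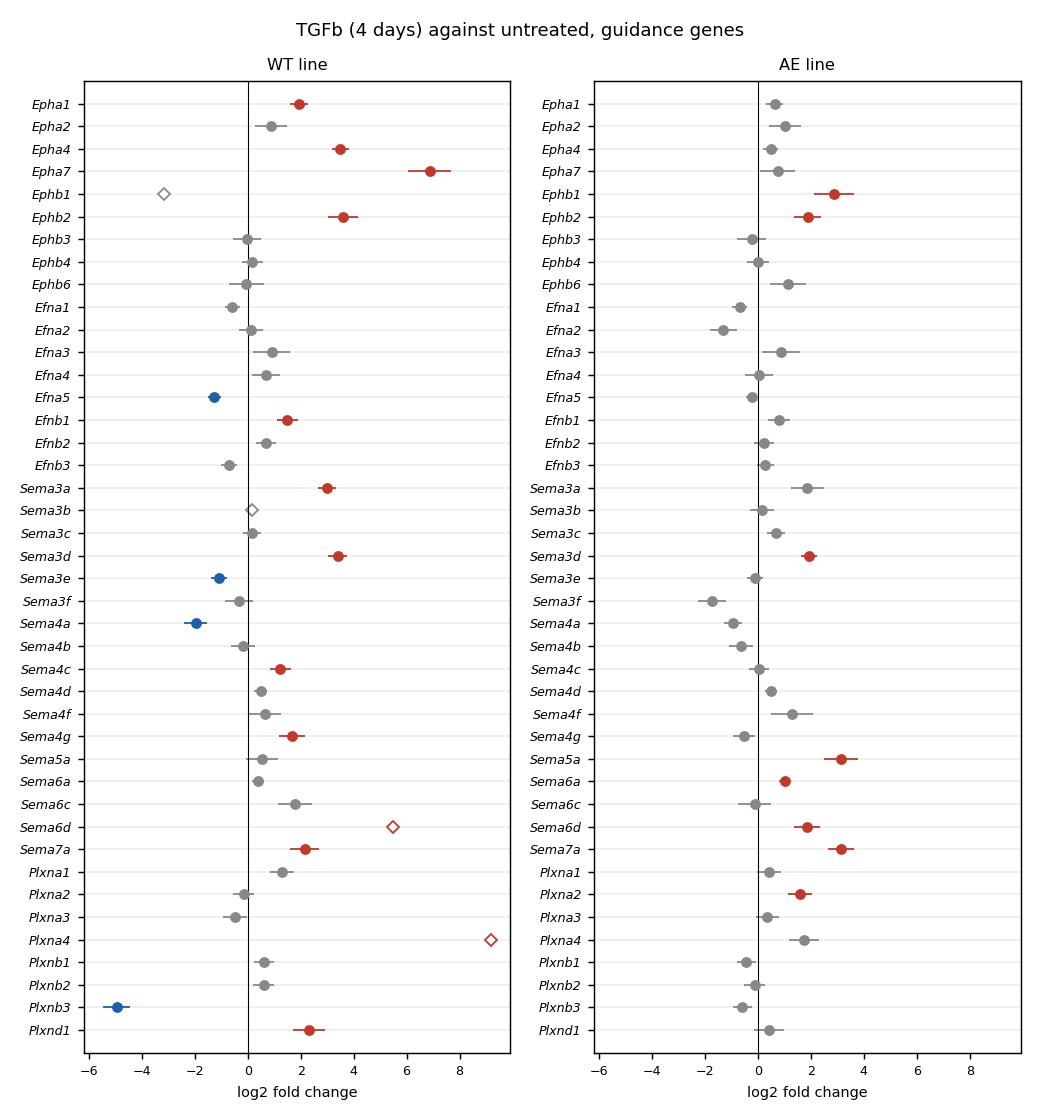
Log2 fold change with TGFb for the 42 tested members in the WT (left) and AE (right) line. Bars are the SE, red and blue points were called higher and lower, grey points were not called, and open diamonds mark a group with 3 or fewer counts, whose fitted size depends on the prior count and has no bar. The WT panel holds 17 coloured members in both directions and the AE panel 8, all to the right of 0.

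Of the 17 calls in the WT line, 9 stayed past the threshold without any 1 of the 4 libraries compared: Epha1, Epha4, Epha7, Ephb2, Efna5, Sema3a, Sema3d, Plxna4 and Plxnb3. The other 8 missed it in at least 1 of these fits, in which 2101 to 2363 of all genes were called where the 16 libraries gave 3634. Their signs held, and the log2 fold change ranged from 1.25 to 1.81 for Efnb1, -1.24 to -0.95 for Sema3e, -2.26 to -1.72 for Sema4a, 0.90 to 1.69 for Sema4c, 1.56 to 1.80 for Sema4g, 1.91 to 2.45 for Sema7a and 1.90 to 2.67 for Plxnd1. Sema3e and Sema4g missed the threshold whichever of the 4 was left out (highest adjusted p 0.149 and 0.14). Without the first untreated library the adjusted p was 0.139 for Efnb1, 0.233 for Sema4c, 0.0583 for Sema6d and 0.111 for Plxnd1. Without the second untreated library it was 0.0846 for Sema7a and 0.0578 for Plxnd1. Sema4a reached 0.0557 without the first treated library. Without the second treated library the values were 0.104 for Efnb1, 0.17 for Sema4c and 0.0906 for Plxnd1. Sema4c (0.0764) and Sema4g (0.0528) also missed the threshold when libraries were scaled by total count. With the 8 libraries of the 4-day experiment fitted alone, all 17 were called and 27 members in total, where 55.9% of all genes were called.

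In the AE line 8 of 42 members rose with TGFb (19%, where 10.4% of all genes tested were called, 6.09% higher and 4.32% lower). By edgeR's test 0 fell, with 4 at a lower value and an unadjusted p under 0.05, a count not made over all genes. DESeq2 called 1 member lower, and 770 of all genes where edgeR called 569 lower. The median log2 fold change was 0.413 over the members and -0.00415 over all genes. The 8 were 5 semaphorins, the EphB receptors Ephb1 and Ephb2, and the plexin Plxna2.

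Sema7a (chr9:57939596-57962865) went from 3.05 and 3.16 CPM in untreated AE cells to 26.1 and 28.8 CPM with TGFb, a log2 fold change of 3.14 ± 0.49 (adjusted p = 0.00196). Sema5a (chr15:32244813-32696341), a transmembrane semaphorin with thrombospondin repeats that binds plexin-B3, went from 3.91 and 5.02 to 34.3 and 44.8 CPM, a log2 fold change of 3.14 ± 0.65 (adjusted p = 0.00932). Sema3d went from 2.73 and 3.09 to 10.7 and 11.5 CPM, a log2 fold change of 1.93 ± 0.29 (adjusted p = 0.0017). The lowest treated library of each of these 3 stood well above the highest untreated one. Sema6a, a membrane-bound ligand of plexin-A2 and plexin-A4, went from 34.4 and 32.1 to 68.9 and 67.4 CPM (log2 fold change 1.04 ± 0.23, adjusted p = 0.0135). Sema6d had means of 0.377 and 1.38 CPM (adjusted p = 0.0382).

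Ephb1 (chr9:101922128-102354693), an ephrin-B receptor, went from 2.64 and 3.16 to 21.6 and 20.7 CPM in the AE line, a log2 fold change of 2.86 ± 0.76 (adjusted p = 0.0395). It was all but absent from WT cells, with 0 and 0.0943 CPM without TGFb and 0 counts with it. Ephb2 went from 1.96 and 2.18 to 7.42 and 7.81 CPM (log2 fold change 1.88 ± 0.51, adjusted p = 0.0349). Plxna2, an A-type plexin that binds class 6 semaphorins, had means of 0.677 and 2.06 CPM (log2 fold change 1.59 ± 0.46, adjusted p = 0.0474). The groups did not overlap for any of these receptors.

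Sema3d and Sema7a stayed past the threshold without any 1 of the 4 AE libraries compared. Ephb1, Ephb2, Sema6a, Sema6d and Plxna2 missed it without any one of them, with highest adjusted p-values of 0.273, 0.236, 0.131, 0.272 and 0.299. In these fits 352 to 459 of all genes were called, where the 16 libraries gave 1371. The log2 fold changes held, at 2.74 to 2.9998 for Ephb1, 1.80 to 1.96 for Ephb2, 0.98 to 1.09 for Sema6a and 1.43 to 1.79 for Plxna2. Sema5a missed it without the first untreated (0.11), the second untreated (0.0804) or the second treated library (0.0593). Total-count scaling took Ephb2 to 0.0698 and Plxna2 to 0.0619, DESeq2 took Sema6d to 0.07, and without a filter on low counts Sema6d was at 0.0551. With the 4-day experiment fitted alone, all 8 were called and 23 members in total, where 35% of all genes were called.

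Ephb2, Sema3d, Sema6d and Sema7a rose with TGFb in both lines, 4 of the 13 that rose in WT and 4 of the 8 that rose in AE. These comparisons share no library. Of all genes 14.7% rose in WT and 6.09% in AE, and those that rose in both were not counted. The difference between the responses, taken as AE minus WT, was tested for every gene and was called for 4 of 42 members (9.52%, where 8.83% of all genes were called, 5.04% higher and 3.79% lower). For 3 of them the response was lower in AE. Epha4 rose by 3.50 ± 0.32 in WT and changed by 0.48 ± 0.29 in AE, a difference of -3.02 ± 0.43 (adjusted p = 0.000899). Its level in untreated AE cells, 51.8 and 50.8 CPM, lay between the untreated and the treated WT levels, and with TGFb it was 69.2 and 73.9 CPM. Epha7 rose by 6.86 ± 0.82 in WT and changed by 0.75 ± 0.65 in AE, where it went from 3.46 and 2.15 to 4.41 and 4.95 CPM (difference -6.12 ± 1.001, adjusted p = 0.00231).

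Plxna4 was at 0.273 and 0.400 CPM in untreated and 1.19 and 1.11 CPM in TGFb-treated AE cells (log2 fold change 1.74 ± 0.57, adjusted p = 0.0862). Its response was lower than in WT (adjusted p for the difference = 0.00832), and since untreated WT cells had 0 counts the fitted size of that difference depends on the prior count. Plxnb3 was the member with the higher value in AE: it fell by 4.94 on the log2 scale in WT and changed by -0.59 ± 0.37 in AE, from 2.14 and 2.29 to 1.31 and 1.62 CPM (difference 4.34 ± 0.64, adjusted p = 0.00122). These 4 differences stayed past the threshold without any 1 of the 16 libraries. Ephb1 and Sema5a, called in AE only, had differences of 6.03 ± 3.32 (adjusted p = 0.382) and 2.61 ± 0.86 (adjusted p = 0.0896), so a difference between the lines was not shown for them. Nor was it for Sema3a, which was called in WT only (-1.13 ± 0.84, adjusted p = 0.559).

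**Figure D2:**
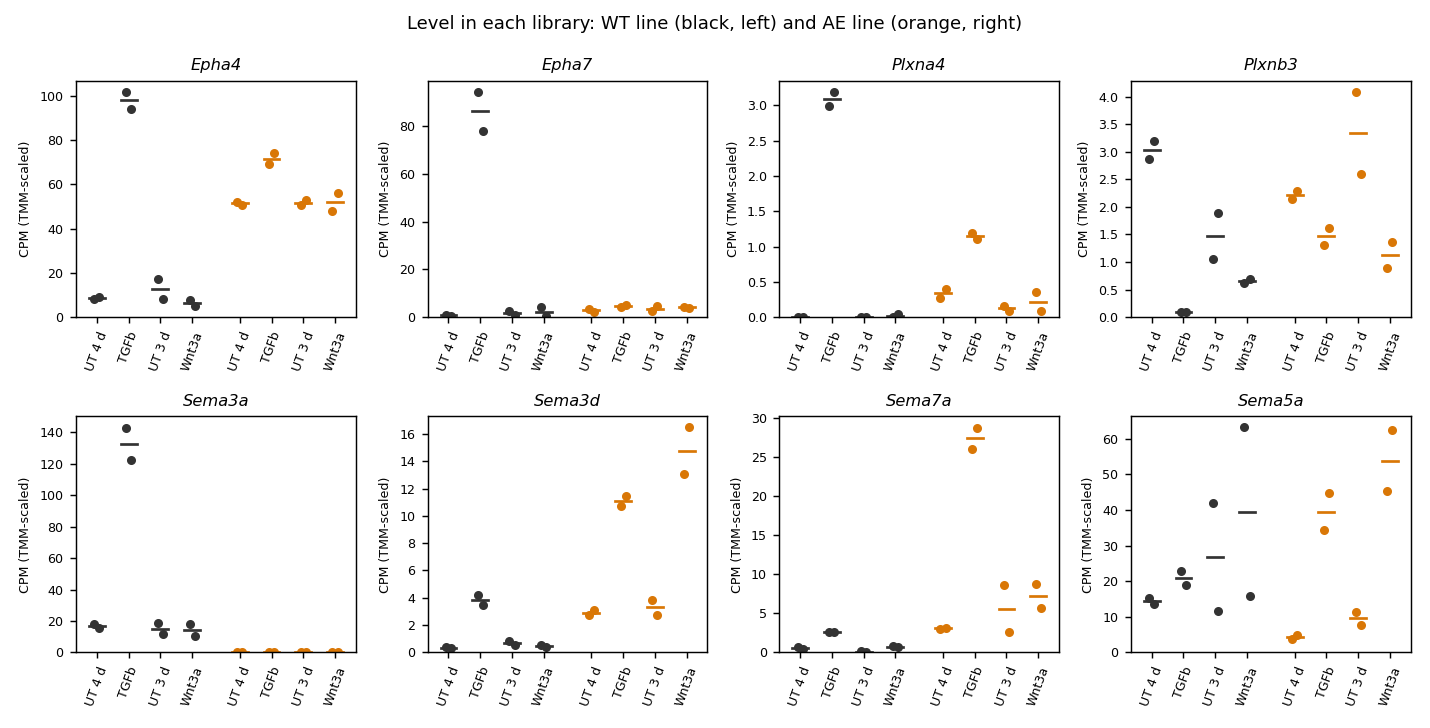
CPM per library for 8 members with strong TGFb responses, on linear axes that start at 0. Points are the 2 libraries of a group and lines their mean, with WT in black on the left and AE in orange on the right. Epha4, Epha7 and Plxna4 are highest in TGFb-treated WT cells, Sema7a and Sema5a in AE cells under treatment, except that Sema5a also reached 63.3 CPM in 1 Wnt3a-treated WT library.

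Wnt3a called 3 of 42 members in the WT line, 1 higher and 2 lower (7.14%, where 4.28% of all genes were called, 2.26% higher and 2.02% lower). The median log2 fold change was 0.159 over the members and 0.0132 over all genes. The member median was 0.191 without 3 members that had 0 counts in 1 group and at most 3 in the other. Sema4f (chr6:82911884-82939769), a transmembrane semaphorin of class 4, went from 1.31 and 1.85 to 19.7 and 34.8 CPM, a log2 fold change of 4.10 ± 0.69 (adjusted p = 0.0062). Sema6a went from 41.3 and 35.7 to 15.8 and 9.63 CPM, a log2 fold change of -1.60 ± 0.24 (adjusted p = 0.00292). Efna5 went from 256 and 183 to 111 and 66.4 CPM, a log2 fold change of -1.31 ± 0.25 (adjusted p = 0.0123). Treated and untreated libraries were apart for all 3, although the duplicates of Sema4f and Efna5 differed widely.

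The spread behind these calls was estimated over all 16 libraries, those of the 4-day groups included. With the 3-day experiment fitted alone, edgeR called 0 of the members in WT, where 0.157% of all genes were called, and the adjusted p-values were 0.0901 for Sema4f, 0.151 for Sema6a and 0.228 for Efna5. In the fit of all libraries 12 members had an unadjusted p under 0.05, a count not made over all genes. DESeq2 called 8 members, and 1291 of all genes where edgeR called 564. Without the first untreated library Sema4f was at 0.0511 and Efna5 at 0.0691, and without the second treated library Efna5 was at 0.0716.

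In the AE line Wnt3a raised 6 members and lowered 1 (16.7%, where 9.33% of all genes were called, 4.59% higher and 4.74% lower). The median log2 fold change was -0.136 over the members and -0.0266 over all genes. Efnb2 (chr8:8617235-8661242), the ephrin-B ligand that pairs with Ephb4 in vessels and the mammary gland, went from 75.8 and 54.2 to 283 and 267 CPM, a log2 fold change of 2.08 ± 0.39 (adjusted p = 0.00501). Ephb2, one of its receptors, went from 1.86 and 0.908 to 5.82 and 4.76 CPM, a log2 fold change of 1.93 ± 0.52 (adjusted p = 0.0358). A receptor and a ligand of the ephrin-B system were thus both higher in the 2 treated libraries, with no overlap.

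Sema5a went from 11.3 and 7.80 to 45.3 and 62.4 CPM, a log2 fold change of 2.49 ± 0.63 (adjusted p = 0.0259). Sema3d went from 3.84 and 2.76 to 13.1 and 16.5 CPM, a log2 fold change of 2.16 ± 0.29 (adjusted p = 0.000653). Sema4f went from 1.497 and 0.371 to 14.7 and 4.30 CPM, a log2 fold change of 3.33 ± 0.69 (adjusted p = 0.00851), and its duplicates differed more than 3-fold in each group. Sema3b (chr9:107597674-107609241), a secreted semaphorin, had means of 0.409 and 3.13 CPM and rose (log2 fold change 2.92 ± 0.50, adjusted p = 0.00266). Plxnb3, the receptor of Sema5a, had means of 3.34 and 1.13 CPM and fell (log2 fold change -1.56 ± 0.37, adjusted p = 0.0188). In these cells Sema5a was higher and its receptor lower.

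**Figure D3:**
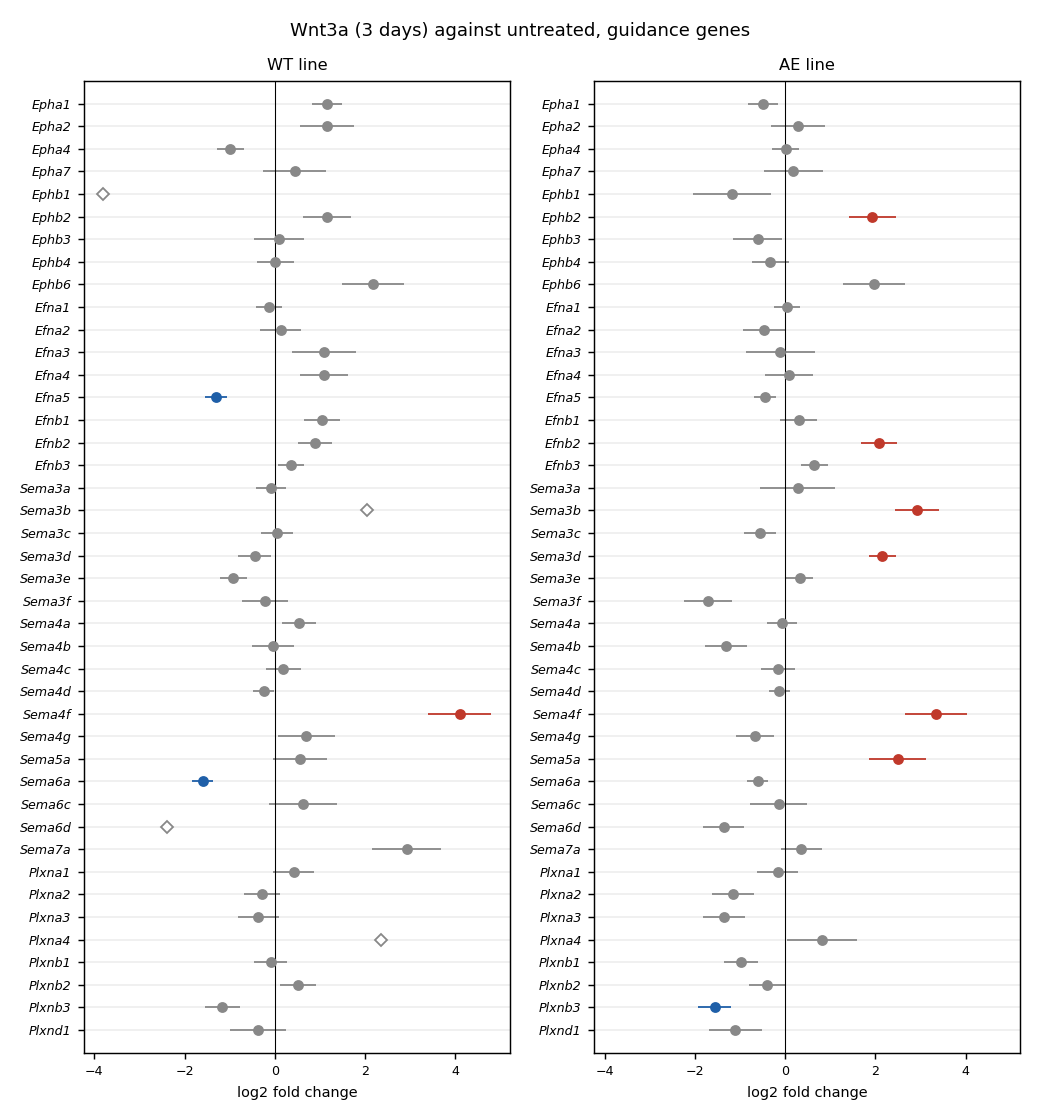
Log2 fold change with Wnt3a for the 42 tested members in the WT (left) and AE (right) line, drawn as for TGFb. Bars are the SE, colours mark called members and open diamonds a group with 3 or fewer counts. Sema4f lies to the right in both panels, and Efnb2, Ephb2, Sema3b, Sema3d and Sema5a are red in the AE panel only.

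Sema3d and Sema3b kept their calls without any 1 of the 4 AE libraries compared, and with the 3-day experiment fitted alone only Sema3d was called, 1 member where 2.8% of all genes were called. There Sema3b was at an adjusted p of 0.0514, Efnb2 at 0.0609, Sema4f at 0.067, Sema5a at 0.153, Plxnb3 at 0.243 and Ephb2 at 0.279. Total-count scaling of all 16 libraries took Ephb2 to 0.0614. Ephb2 also missed the threshold in 11 of the fits without 1 library, most of them without a 4-day library. Its log2 fold change was 1.51 to 2.54 over all alternatives. Without the second untreated library Efnb2 was at 0.051, Ephb2 at 0.173 and Sema4f at 0.0611. Without the first treated library Ephb2 was at 0.171, Sema4f at 0.0999 and Plxnb3 at 0.178. Plxnb3 was at 0.103 without the first untreated library and Ephb2 at 0.108 without the second treated one, while Sema5a missed the threshold whichever was left out (highest adjusted p 0.14).

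Sema4f was the 1 member called with Wnt3a in both lines, of 1 that rose in WT and of 6 that rose in AE. Of all genes 2.26% rose with Wnt3a in WT and 4.59% in AE, and those that rose in both were not counted. The difference in the Wnt3a response was called for 1 of 42 members, Sema3d (2.38%, where 2.34% of all genes were called, 1.18% higher and 1.16% lower). Sema3d went from 0.808 and 0.534 to 0.535 and 0.436 CPM in WT, a log2 fold change of -0.45 ± 0.36, against 2.16 ± 0.29 in AE (difference 2.61 ± 0.46, adjusted p = 0.0134). That call was lost without the second Wnt3a-treated AE library (adjusted p 0.0589) and with the 3-day experiment fitted alone (0.324). The differences for Efnb2 and Sema6a were 1.20 ± 0.53 (adjusted p = 0.292) and 0.99 ± 0.32 (adjusted p = 0.164), so a difference between the lines was not shown for either.

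**Figure D4:**
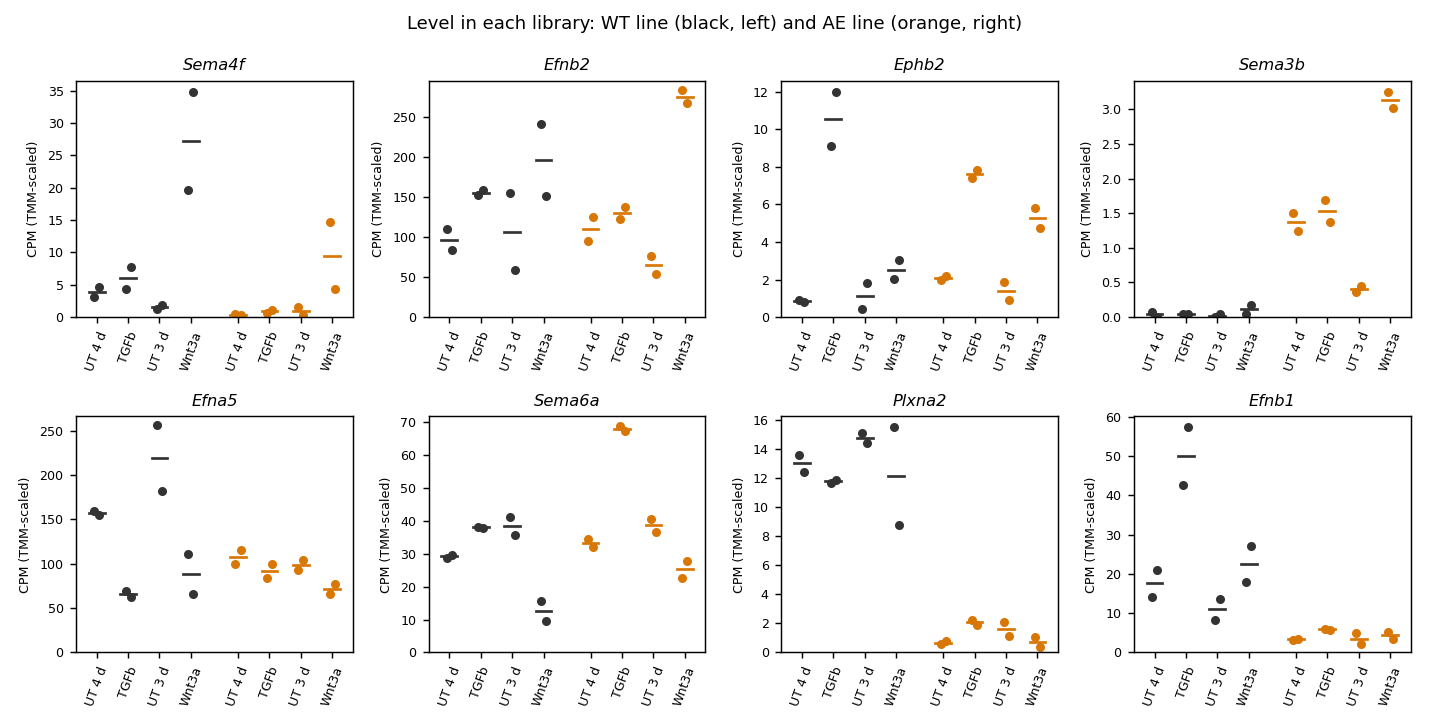
CPM per library for 8 members, on linear axes that start at 0, with WT in black on the left and AE in orange on the right; points are the 2 libraries of a group and lines their mean. Sema4f is higher with Wnt3a in both lines, Efnb2 and Sema3b are highest in Wnt3a-treated AE cells, Sema6a and Efna5 are lower with Wnt3a in WT cells, and Plxna2 and Efnb1 are low in every AE group.

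The untreated lines differed for 27 of 42 members, 17 higher in AE and 10 lower (64.3%, where 53.8% of all genes were called, 27.4% higher and 26.4% lower). The median log2 fold change was 0.477 over the members and 0.0122 over all genes, with no change in the former when members at 0 counts were set to their bound. The comparison set 4 untreated AE libraries, 2 from each experiment, against 4 of WT. These libraries are also the controls of the treatment comparisons. For 20 of the 27 the libraries of the 2 lines did not overlap, a count that was not made over all genes. All 27 had the same sign in both experiments, and 14 were called in each of them alone. Of all 13172 genes 4583 were called in the 4-day and 5572 in the 3-day cells alone, and those called in both were not counted. Epha7, Ephb3, Sema3e, Sema5a and Plxnb1 were called in neither alone. Efna5, Sema6c, Plxna3 and Plxnd1 were called only in the 3-day cells, and Epha2, Efnb3, Sema4d and Sema4f only in the 4-day cells. The log2 fold change of Epha2 was -2.76 in the 4-day and -0.91 in the 3-day cells, that of Sema4f -3.39 and -0.76, and that of Sema7a, called in both, 2.40 and 5.86. Ephrins called between the lines were all lower in AE, while most called Eph receptors, semaphorins and plexins were higher.

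Sema3a stood furthest apart. It was at 17.9 and 15.4 CPM in the 4-day and 18.6 and 11.8 CPM in the 3-day WT libraries, and at 0.0909 and 0.109 CPM and 0.121 and 0.0413 CPM in those of AE. The log2 fold change was -7.37 ± 0.37 (adjusted p = 1.71e-08), with -7.29 in the 4-day and -7.45 in the 3-day cells. Plxna2 (chr1:194619791-194816869) was at 13.6 and 12.4 and at 15.1 and 14.4 CPM in WT, and at 0.591 and 0.764 and at 2.06 and 1.16 CPM in AE (log2 fold change -3.72 ± 0.32, adjusted p = 1.3e-06). Both Sema3a and this plexin of the A class were thus well below their WT levels in every AE library. Plxna4, the other plexin of that class with low counts, had 0 counts in the 4 untreated WT libraries and 23 in those of AE, at least 7.13-fold higher (adjusted p = 0.0018).

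Epha4 was at 8.26 and 9.10 and at 17.3 and 8.18 CPM in WT and at 51.8 and 50.8 and at 50.6 and 52.7 CPM in AE, a log2 fold change of 2.29 ± 0.22 (adjusted p = 2.98e-06). Ephb1 had means of 0.0614 and 2.01 CPM (log2 fold change 4.91 ± 0.84, adjusted p = 0.000655). For both receptors every AE library was above every WT library. Epha7 (means 1.24 and 3.19 CPM, adjusted p = 0.0245) and Ephb3 (means 27.3 and 66.7 CPM, adjusted p = 0.0126) were higher in AE with overlapping libraries. Epha2, an ephrin-A1 receptor prominent in breast cancer, was the 1 Eph receptor that was lower, with means of 93.7 and 23.98 CPM and some overlap (log2 fold change -1.84 ± 0.43, adjusted p = 0.00347).

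In AE cells 4 ephrins were lower. Efnb1 was at 14.2 and 21.1 and at 8.18 and 13.7 CPM in WT and at 3.14 and 3.53 and at 4.89 and 2.15 CPM in AE (log2 fold change -2.02 ± 0.30, adjusted p = 0.000105). Efna1, the ligand of Epha2, was at 50.98 and 66.8 and at 27.6 and 42.8 CPM in WT and at 23.4 and 23.8 and at 18.001 and 13.7 CPM in AE (log2 fold change -1.24 ± 0.21, adjusted p = 0.000287). Efna1 and its receptor Epha2 were thus both lower. Efna5 was at 160.0 and 154 and at 256 and 183 CPM in WT and at 99.8 and 115 and at 92.5 and 104 CPM in AE (log2 fold change -0.85 ± 0.18, adjusted p = 0.00136), and within the 4-day cells alone it missed the threshold (adjusted p = 0.109). Efnb3 had means of 1.56 and 0.968 CPM (adjusted p = 0.0151), and its call was lost without the second untreated 4-day library of WT (0.0617) or of AE (0.059).

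In AE cells 9 semaphorins were higher. Sema4a, a membrane-bound ligand of B-type plexins and plexin-D1, was at 1.18 and 1.23 and at 0.707 and 1.36 CPM in WT and at 9.37 and 7.82 and at 6.35 and 4.75 CPM in AE (log2 fold change 2.62 ± 0.26, adjusted p = 4.1e-06). Sema4c was at 19.1 and 32.99 and at 9.50 and 21.9 CPM in WT and at 67.02 and 59.7 and at 38.5 and 37.5 CPM in AE (log2 fold change 1.28 ± 0.27, adjusted p = 0.00161). Sema4g had means of 0.287 and 4.30 CPM (log2 fold change 3.92 ± 0.37, adjusted p = 2.45e-06). No WT library reached the AE level of these 3 class 4 members. Sema3d had means of 0.514 and 3.11 CPM (log2 fold change 2.66 ± 0.24, adjusted p = 1.67e-06). Sema7a had means of 0.338 and 4.37 CPM (log2 fold change 4.13 ± 0.44, adjusted p = 7.05e-06). Sema6c had means of 0.803 and 2.56 CPM (log2 fold change 1.76 ± 0.48, adjusted p = 0.00867). These 3, from different classes, were also apart between the lines in every library. Sema6d had 1 count in the WT and 98 in the AE libraries, a ratio of 91.1 with a 95% counting interval of 15.97 to 3635 (adjusted p = 2.93e-05). Sema3b had 3 and 87 counts, a ratio of 26.96 with an interval of 8.925 to 133.3 (adjusted p = 3.78e-05). Sema3e differed least, with means of 14.98 and 21.9 CPM and overlap (adjusted p = 0.0368).

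The 4 semaphorins that were lower in AE were Sema3a and 3 membrane-bound ones. Sema5a was at 15.4 and 13.5 and at 41.9 and 11.7 CPM in WT and at 3.91 and 5.02 and at 11.3 and 7.80 CPM in AE (log2 fold change -1.59 ± 0.44, adjusted p = 0.00863), and without the first 3-day WT library the adjusted p was 0.0521. Sema4d, the ligand of plexin-B1, was at 64.6 and 70.7 and at 64.1 and 61.9 CPM in WT and at 42.3 and 42.5 and at 52.4 and 30.4 CPM in AE (log2 fold change -0.64 ± 0.17, adjusted p = 0.00648). Both kept the lines apart, Sema5a by a narrow margin. Sema4f had means of 2.74 and 0.651 CPM with overlap (adjusted p = 0.00438, and 0.383 in the 3-day cells alone).

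Among the plexins, Plxnd1 was at 5.08 and 6.88 and at 1.21 and 4.27 CPM in WT and at 16.5 and 16.004 and at 24.96 and 7.18 CPM in AE (log2 fold change 1.99 ± 0.43, adjusted p = 0.00188). The lines did not overlap for this receptor of Sema3e and Sema4a. Plxna3 (means 26.7 and 53.2 CPM, adjusted p = 0.0192) and Plxnb1 (means 107 and 180.1 CPM, adjusted p = 0.0278) were also higher in AE, with overlap. Several of the calls with overlap missed the threshold when 1 untreated library was left out, in fits that called 5705 to 8317 of all genes where the 16 libraries gave 7082. Plxnb1 missed the threshold without the first 4-day or first 3-day WT library, either 4-day AE library or the first 3-day AE library, at adjusted p-values up to 0.141 without the last, with log2 fold changes of 0.50 to 0.78 in these fits. Plxna3 did without the first 4-day WT (0.0758) or the first 3-day AE library (0.104), and Ephb3 without the first 4-day WT library (0.0577). Epha7 did without either 4-day or the second 3-day WT library, the first 4-day or the second 3-day AE library (up to 0.0798), at log2 fold changes of 1.18 to 1.56 where the 16 libraries gave 1.49 ± 0.50. Sema3e did without any untreated library but the first 3-day one of WT (up to 0.106), at 0.47 to 0.63 against 0.58 ± 0.21.

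**Figure D5:**
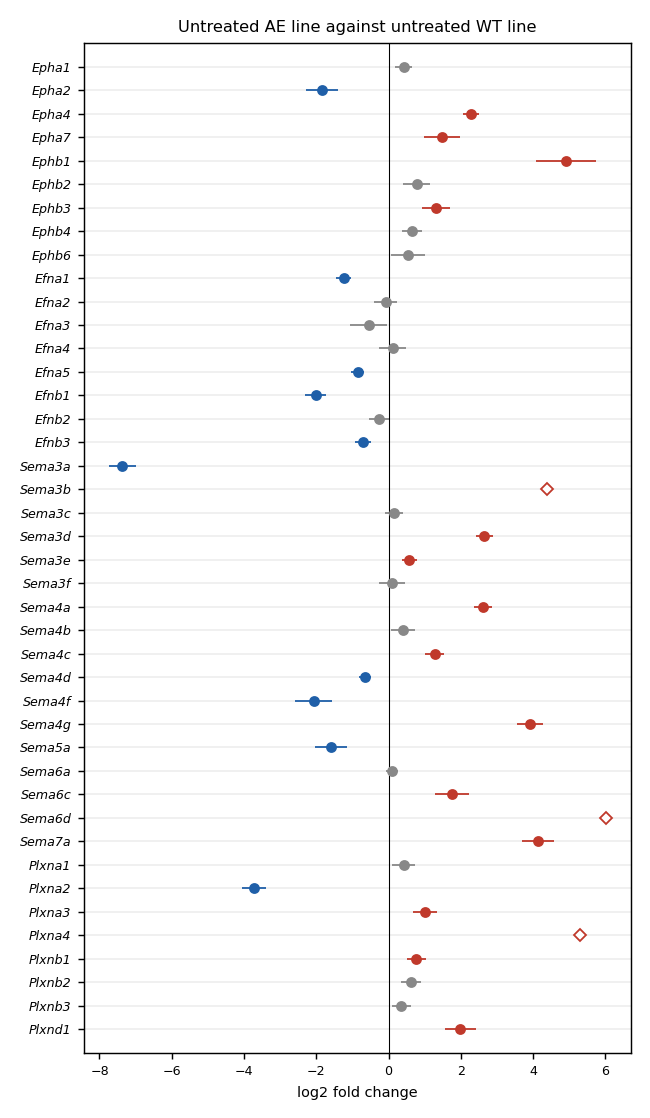
Log2 fold change of untreated AE cells against untreated WT cells (4 libraries each) for the 42 tested members. Bars are the SE, red and blue mark members called higher and lower in AE, and open diamonds mark a group with 3 or fewer counts, whose fitted size depends on the prior count. Sema3a and Plxna2 lie furthest to the left, and all called ephrins are on that side.

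The 10 tested members that were not called in any comparison between groups included some of the most abundant. Sema3c ranged from 242 to 676 CPM over the 16 libraries, Plxnb2 from 107 to 562, Plxna1 from 56.5 to 419.6 and Ephb4, the ephrin-B2 receptor, from 39.5 to 165 CPM. Ephb6, an Eph receptor without kinase activity, ranged from 10.96 to 267 CPM. Its log2 fold change with Wnt3a was 2.18 ± 0.69 in WT (adjusted p = 0.0999) and 1.97 ± 0.68 in AE (adjusted p = 0.108), so it missed the threshold in both. Sema3f, a secreted ligand of neuropilin-2, ranged from 14.7 to 79.8 CPM, with log2 fold changes of -1.73 ± 0.53 with TGFb (adjusted p = 0.0596) and -1.70 ± 0.53 with Wnt3a in AE cells (adjusted p = 0.07). Sema4b ranged from 4.90 to 20.995, Efna4 from 5.51 to 32.6, Efna3 from 0.303 to 3.23 and Efna2 from 0.339 to 1.28 CPM. Exons of the protein-coding gene Zan overlap Ephb4 on the opposite strand, and noncoding genes overlap exons of Sema4c, Ephb1, Plxnb1, Plxna1, Efna3 and Efna4 there.

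Other genes of the same pathways were taken from lists chosen with earlier results of these data known. Their shares beside those of all genes are therefore not an independent comparison. Nrp1, the neuropilin co-receptor of Sema3a, rose in all 4 treatment comparisons. Its means went from 46.2 to 263 CPM with TGFb in WT (log2 fold change 2.51 ± 0.45, adjusted p = 0.00135) and from 16.2 to 121 CPM in AE (2.90 ± 0.46, adjusted p = 0.00222). With Wnt3a they went from 54.4 to 245 CPM in WT (2.17 ± 0.45, adjusted p = 0.0179) and from 25.2 to 141 CPM in AE (2.48 ± 0.45, adjusted p = 0.0042). Nrp2 rose with TGFb, from 316 to 558 CPM in WT (adjusted p = 0.0197) and from 178 to 484 CPM in AE (adjusted p = 0.00247), but fell with Wnt3a in WT, from 324 to 145 CPM (adjusted p = 0.0162). Both neuropilins were lower in untreated AE than in untreated WT cells (adjusted p = 0.00356 for Nrp1 and 0.00285 for Nrp2). Of the 6 co-receptors listed, 3 rose with TGFb in WT (50%, with 27.6% of all genes called) and 2 in AE (33.3%, with 10.4% of all genes called), and Itgb1, the integrin chain that Sema7a binds, was the third in WT (1.36 ± 0.30, adjusted p = 0.00462).

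Of 20 tested plexin effectors, 3 rose and 1 fell with TGFb in WT, 1 rose and 1 fell with TGFb in AE, and 2 rose with Wnt3a in AE. These were 20%, 10% and 10% of the list, where 27.6%, 10.4% and 9.33% of all genes were called. Dpysl3, a CRMP protein of semaphorin signalling, had 0 counts in untreated WT cells and a mean of 8.12 CPM with TGFb (adjusted p = 3.89e-06), and went from 2.18 to 12.6 CPM in AE (adjusted p = 0.00195). Mical2, an actin oxidase, and Rnd3, a small GTPase, rose by 2.26 ± 0.35 (adjusted p = 0.000435) and 1.79 ± 0.31 (adjusted p = 0.000929) on the log2 scale in WT. Between the lines 9 plexin effectors were higher and 3 lower in AE (60%, with 53.8% of all genes called). Of 19 Eph effectors and modifiers, 2 rose and 2 fell with TGFb in WT and 1 fell in each of the other treatment comparisons. That is 21.1% with TGFb in WT, below the 27.6% of all genes, and 5.26% in each of the others, where 10.4% of all genes were called with TGFb in AE, 4.28% with Wnt3a in WT and 9.33% with Wnt3a in AE. Ngef, an ephexin that binds Eph receptors, went from 8.71 and 9.29 to 0.393 and 0.494 CPM (log2 fold change -4.32 ± 0.36, adjusted p = 5.26e-06). Tiam1, a Rac activator, fell (-1.64 ± 0.28, adjusted p = 0.00103) and the adaptor Nck2 rose (1.43 ± 0.18, adjusted p = 8.37e-05). Between the lines 5 were higher and 4 lower (47.4%, below the 53.8% of all genes).

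Genes of neighbouring guidance systems were counted in the same way. Of 8 tested netrin and Unc5 genes, 5 rose with TGFb in WT and 2 in AE, and 1 fell with Wnt3a in each line. These were 62.5%, 25% and 12.5% of a short list, beside 27.6% and 10.4% of all genes with TGFb and 4.28% and 9.33% with Wnt3a. Unc5b, a netrin receptor, went from 86.6 to 537 CPM with TGFb in WT (log2 fold change 2.63 ± 0.45, adjusted p = 0.000912) and from 42.5 to 202 CPM in AE (2.25 ± 0.44, adjusted p = 0.00725). Unc5c was the gene that fell with Wnt3a, by 1.76 in WT (adjusted p = 0.0363) and by 2.53 in AE (adjusted p = 0.00275) on the log2 scale. Of 7 tested Slit and Robo genes, 5 rose with TGFb in WT (71.4%, with 27.6% of all genes called) and 3 in AE (42.9%, with 10.4% of all genes called). Srgap1, which acts below Robo receptors, rose in both (1.90 ± 0.40, adjusted p = 0.00379 in WT and 4.12 ± 0.45, adjusted p = 0.000272 in AE), and Robo1 rose in WT (2.99 ± 0.46, adjusted p = 0.000422). With Wnt3a 2 Slit and Robo genes rose in WT (28.6%, with 4.28% of all genes called), and 3 rose and 1 fell in AE (57.1%, with 9.33% of all genes called). Epha6, Epha8 and Epha10, Eph receptors outside the 48, were too low to test where they had a row.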

How the data were processed

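RNA was sequenced as single reads of 75 bases from stranded poly(A) libraries, per the labels' protocols. The authors aligned reads with STAR to mm10, per the submitters' processing notes, and deposited whole-number counts per Entrez gene. For the counting tool and its strand setting the sources used here give nothing. Symbols and coordinates came from RefSeq's GRCm38.p6 table, exon lengths from GENCODE M21, and 52 rows without a symbol stayed in the tests. Genes with at least 1 CPM in at least 2 libraries were tested with edgeR 4.0.16 in R 4.3.3 (TMM factors 0.826 to 1.06, quasi-likelihood F test, 1 mean per group, 8 residual degrees of freedom, Benjamini-Hochberg adjustment). SE is the log2 fold change divided by the square root of F. DESeq2 1.42.0 was an alternative, beside other scalings, filters, sample sets and left-out libraries. Depth allows a floor of 3 counts where a group is at 0. Intervals and floors cover counting error only. Duplicates differed beyond sampling noise (chi-square per degree of freedom 4.89 to 213), so all 16 libraries were kept. Called members without overlap and with at least 5 CPM in 1 group are given per library and others mostly by means, and from each list up to 3 called genes. The steps were tested on simulated counts. Members and lists were chosen with earlier results of these data known.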

Additional observations from a re-analysis of the deposited data

Results flagged for a closer look

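Sets of 4 untreated libraries were examined for the 27 members called between the lines, in 2 lines. In 6 of these 54 sets 1 library lay far from the other 3. The criterion flags about 1 in 20 sets of 4 values drawn from 1 normal distribution. These sets mix 2 experiments of unlike spread and share libraries, so that rate does not apply to them. The first 3-day untreated WT library was the one apart for Epha4 (17.32 CPM), Epha7 (2.627 CPM), Sema5a (41.87 CPM) and Sema6d (0.05051 CPM). The Sema6d set held a single count and 3 values of 0, which meets the criterion whatever the library, so 5 sets remain without it. The first 3-day untreated AE library was apart for Sema4f (1.497 CPM) and Sema7a (8.616 CPM). In each case it was the highest.

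The response to TGFb differed between the lines by a test of the difference itself (AE minus WT, log2 scale) for Epha4 (-3.017), Epha7 (-6.119), Plxnb3 (4.345) and Plxna4 (-7.442, a size that depends on the prior count because untreated WT cells had 0 counts). The response to Wnt3a differed for Sema3d (2.608).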

How the results depend on the processing

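None of the 67 called changes of single members reversed in sign under any alternative, fits without 1 library included. Many calls missed the threshold without 1 of the libraries compared, as given with each comparison above. Such a fit leaves 1 library in a group, so its p-value rests on the spread of the other groups. Median-ratio scaling lost 0 calls, total-count scaling 5, dropping the filter 2 and DESeq2 1. All counts below are members called, except where all genes are named. Over all genes DESeq2 called 1291 for Wnt3a in WT and 1648 for Wnt3a in AE, where edgeR called 564 and 1229. For the TGFb and the Wnt3a difference DESeq2 called 1652 and 703 of all genes, where edgeR called 1163 and 308. With the filter of 5 CPM, 1044 of 11465 genes were called for the TGFb difference. At that filter Plxna4 and Plxnb3, at most 3.19 and 4.09 CPM in any library, were not tested. The 52 called changes that were still tested there all kept their calls.

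For TGFb in WT the count was 17, 27 with the 4-day experiment alone, and 11 to 19 leaving out each library. For TGFb in AE it was 8, 28 with only the groups compared, 23 with the experiment alone, and 2 to 10 leaving out each library. For Wnt3a in WT it was 3, 8 by DESeq2, 0 with only the groups compared or the experiment alone, and 2 to 9 leaving out each library. For Wnt3a in AE it was 7, 11 by DESeq2, 4 with only the groups compared, 1 with the experiment alone, and 3 to 12 leaving out each library. Between the untreated lines it was 27, and 22 to 32 leaving out each library. For the TGFb difference it was 4, 2 with a filter of 5 CPM, 7 by DESeq2, 21 with only the groups compared or the experiment alone, and 4 to 8 leaving out each library. For the Wnt3a difference it was 1, 3 by DESeq2, 0 with only the groups compared or the experiment alone, and 0 to 9 leaving out each library. Fits with fewer groups estimate the spread from fewer libraries, and beyond that the cause was not tested. The share of all genes called moved as well, and leaving out a library moved it most for Wnt3a in WT and the Wnt3a difference. With only the groups compared it was 45.4% for TGFb in WT, 56% for TGFb in AE, 0.0258% for Wnt3a in WT and 4.35% for Wnt3a in AE. With the experiment alone it was 55.9%, 35%, 0.157% and 2.8% in the same order. For the TGFb difference both settings gave 30.2% and for the Wnt3a difference 0.0628%.

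With replicate number as a block the counts, in the same order, were 17, 7, 4, 7, 27, 4 and 1. Over all genes they were 3543, 1329, 552, 1223, 7018, 1143 and 274. With 2 numbers per group the labels do not show that numbers pair samples. Same-numbered WT libraries deviated together (r 0.615 to 0.797 across genes) and those of different lines mostly in opposite directions (untreated 4-day cells, r -0.447). The block took the TGFb call of Sema6d in AE to an adjusted p of 0.053. Blocks chosen after seeing the data gave more calls in number. A replicate block within each line gave 20, 12, 12, 12, 34, 11 and 3, and numbers crossed between the lines gave 19, 9, 10, 11, 30, 9 and 2. Over all genes the block within lines gave 4866, 2181, 2250, 1894, 9098, 1784 and 1188. The crossed numbers gave 4561, 1922, 1560, 1652, 8192, 1620 and 709 of all genes. The block within lines lost the line calls of Epha7 (adjusted p 0.0675) and Sema3e (0.158). Depth limits Plxna4, Sema6d, Sema3b and Ephb1, which have groups of few or 0 counts.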
